A study of Mus musculus with 24 samples.

Results

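The genes described here are 8 members of the p53 pathway and its surroundings in NIH3T3 cells, an established line of mouse embryonic fibroblasts: Trp53, Mdm2, Ppm1d, Cdkn1a, Fas, Eda2r, Ccng1 and Cdc42. They were chosen by name with earlier results of these data known. How many of them were called is therefore not independent of these data. All 8 of them were found among the 13534 genes of the whole-cell table and among the 11568 genes of the fraction table. The cells received either a mimic of the microRNA miR-29b or a scrambled control mimic, both carrying 3-cyanovinylcarbazole, a nucleoside that light can crosslink to the facing strand. Total RNA of the transfected cells, called the input, was sequenced beside the RNA that was pulled down with the mimic. Each mimic had 4 input and 4 pulldown libraries of whole cells, 16 in all. Nucleus and cytoplasm were sequenced in 8 more libraries, 1 for each mimic and step. Mimics were used at 10 nM, and cells were harvested 8 h after fresh medium had been added at 24 h. Every group was transfected with a mimic, so no untransfected cells entered any comparison. Nothing in the labels says that libraries of 1 group came from separate cultures, so the p-values rest on a spread among samples that may be technical.

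The transcription factor p53, the product of Trp53, is stabilised by DNA damage and other stress and switches on genes that stop the cell cycle, repair DNA or start apoptosis. Mdm2 is the ubiquitin ligase that degrades p53, and Ppm1d encodes Wip1, a phosphatase that removes activating phosphates from p53 and from its kinases. Both are themselves p53 targets, which closes feedback loops. Cdkn1a encodes the cell cycle inhibitor p21, Fas a death receptor, Eda2r a receptor of the tumor necrosis factor receptor family, and Ccng1 the cyclin G1. Cdc42 is a small GTPase and no classical p53 target. It and Pik3r1, the p85 regulatory subunit of phosphoinositide 3-kinase, have been reported as miR-29 targets through which miR-29 raises p53, and Ppm1d has been reported as a miR-29 target too.

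The mature miR-29b is shown with its family because a microRNA pairs with its targets mainly through bases 2 to 8, the seed, set here in capitals. The sequences are those of RefSeq on GRCm38.p6. All 3 family members share the seed AGCACCA and differ in the bases after it.
miR-29b-3p: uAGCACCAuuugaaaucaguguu
miR-29a-3p: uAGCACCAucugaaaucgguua
miR-29c-3p: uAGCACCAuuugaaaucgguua
The second set of sequences comes from the promoters, since the members are grouped by their link to p53. A window from 250 bases before to 50 bases after the start of each gene (RefSeq, GRCm38.p6) was searched for the decamer of the p53 response element, which reads the same class of letters on both strands. The decamer was found in 5 of the 8 members, Trp53, Mdm2, Ppm1d, Cdkn1a and Ccng1, and in 9.55% of the 27025 genes with a window. A full element is a pair of adjoining decamers. With at most 1 mismatch it was found in the windows of Cdkn1a and Ccng1, and in 29 of the 27025 genes (0.107%). The capitals below mark the pair in these genes, and in Trp53, Mdm2 and Ppm1d the single decamer.
Cdkn1a, chr17:29090923-29090952, plus strand: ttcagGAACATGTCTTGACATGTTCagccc
Ccng1, chr11:40755457-40755486, minus strand: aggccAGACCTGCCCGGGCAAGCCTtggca
Trp53, chr11:69580274-69580303, plus strand: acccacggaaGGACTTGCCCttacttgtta
Mdm2, chr10:117710925-117710954, minus strand: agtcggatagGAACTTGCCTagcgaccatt
Ppm1d, chr11:85311112-85311141, plus strand: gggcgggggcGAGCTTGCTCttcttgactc
These matches describe the letters only; occupancy by p53 was not measured here, and no match in the windows of Fas, Eda2r and Cdc42 says only that the decamer is not in that stretch.

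The libraries held 7409157 to 55153996 listed counts, and 12915 genes, all 8 members among them, passed the filter on low counts. Of 10 fibroblast markers, 9 were listed; Vim, an intermediate filament of mesenchymal cells, ranged from 953 to 2150 CPM, while Dcn, the matrix proteoglycan decorin, ranged from 0 to 3.00 CPM. The epithelial markers Epcam, Cdh1, Krt5 and Krt14, the endothelial markers Pecam1, Cdh5 and Kdr, the leukocyte markers Ptprc and Lyz2 and the muscle markers Ckm and Myh1 were not listed in the table. The leukocyte marker Cd68 was listed at 0.555 to 4.07 CPM, and the muscle markers Acta1 and Des at 0.475 to 4.96 and 0.218 to 2.59 CPM. Replicate 4 of the miR-29b input stood apart from the other inputs of its group in several members, as the values below show. Replicate 4 also stood apart over all genes tested. On the third principal component, an axis holding 17.8% of their variance, replicate 4 of the miR-29b input had 76.2. Replicate 4 of the scrambled input had 72.9, and that of the miR-29b pulldown 65.0. Replicate 4 of the scrambled pulldown had -14.8, and all libraries of replicates 1 to 3 had 2.76 or less. In the authors' deposited table the average of a score over samples called lysed is the mean of replicates 1 to 3, and a separate mark is named intact. Replicate 4 may therefore come from another procedure than replicates 1 to 3, which the labels do not state. It is kept as a replicate of its group, as the labels number it. The value of replicate 3 fell between those of replicates 1 and 2 for 8 of the 8 members in the miR-29b pulldown and in its input, for 6 in the scrambled pulldown and for 4 in the scrambled input. The share of all genes with this order was not counted. Whether replicate 3 is independent of replicates 1 and 2 was not tested, and if it is not, p-values that use it are too small. Results were therefore also computed on replicates 1 to 3 and on replicates 1, 2 and 4.

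Levels below are CPM (counts scaled to library size) after TMM scaling, and changes are log2 ratios with their standard error (SE). Adjusted p-values come from edgeR's quasi-likelihood test with Benjamini-Hochberg adjustment over all 12915 genes, and a change was called at an adjusted p under 0.05. The comparison that uses all 4 groups asks whether the pulldown raised a gene over its input more with miR-29b than with the scrambled mimic, here called mimic-specific enrichment.

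The miR-29b pulldown held more RNA of 5 of the 8 members than the scrambled pulldown: Eda2r, Cdkn1a, Ppm1d, Fas and Cdc42. In order, they were 31.5, 11.4, 6.79, 4.46 and 2.85 times as high. Trp53, Mdm2 and Ccng1 were within 1.25-fold and did not pass the test. Between these pulldowns 24.5% of all genes tested were called higher and 20.9% lower, so a call is common here and the size of the change says more than the call. The same 5 members passed in the mimic-specific enrichment, where 17.0% of all genes were called higher and 9.21% lower. By edgeR no member was called lower in either comparison or had an unadjusted p under 0.05 in that direction, and DESeq2 called the same numbers of members, 5 and 0, in both.

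**Figure D1:**
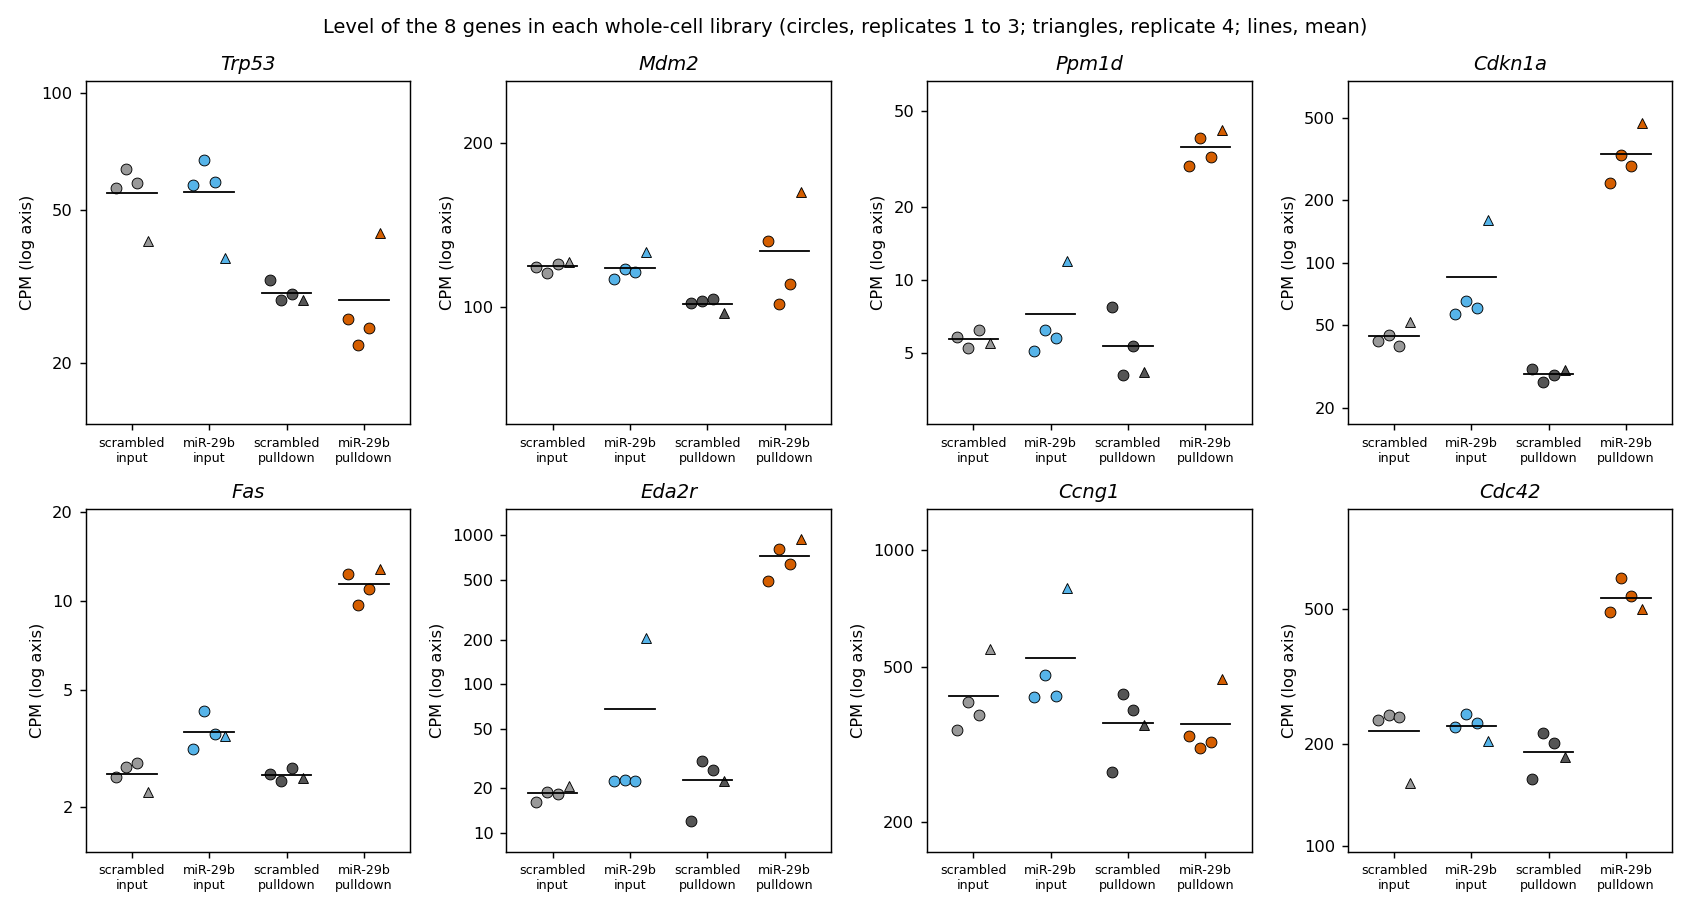
The level of each member in each of the 16 whole-cell libraries, in CPM on a log axis, by group on the horizontal axis; circles are replicates 1 to 3, triangles are replicate 4 and lines are group means. In Eda2r, Cdkn1a, Ppm1d, Fas and Cdc42 all 4 miR-29b pulldown libraries lie above every other library, and replicate 4 of the miR-29b input is the highest input in Eda2r, Cdkn1a, Ppm1d, Ccng1 and Mdm2. The share of all genes with such a separation was not counted.

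Trp53 (chromosome 11, 69580348 to 69591873 on GRCm38.p6) was lower in the pulldown than in the input with either mimic. Its level in replicates 1 to 4 was 58.0, 67.3, 59.0 and 37.5 CPM in the miR-29b input and 56.8, 63.6, 58.7 and 41.5 CPM in the scrambled input. In the miR-29b pulldown it was 26.0, 22.3, 24.7 and 43.5 CPM, and in the scrambled pulldown 32.9, 29.2, 30.3 and 29.2 CPM. The scrambled pulldown lay below every scrambled input, while replicate 4 of the miR-29b pulldown lay above replicate 4 of its input. The log2 change from input to pulldown was -0.93 ± 0.22 (SE) with miR-29b (edgeR adjusted p = 0.00224) and -0.86 ± 0.22 with the scrambled mimic (edgeR adjusted p = 0.00638). The call with miR-29b was lost with the authors' library totals (-0.64, edgeR adjusted p = 0.0637), and that with the scrambled mimic on replicates 1, 2 and 4 (-0.81, edgeR adjusted p = 0.0791). The difference between these changes, the mimic-specific enrichment, was -0.07 ± 0.31 (edgeR adjusted p = 0.90). On replicates 1 to 3 Trp53 was lower in the miR-29b than in the scrambled pulldown by a log2 change of -0.34 ± 0.10 (edgeR adjusted p = 0.0137), where 29.5% of genes were called lower. With all replicates that change was -0.06 ± 0.22 (edgeR adjusted p = 0.845).

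Mdm2 (chromosome 10, 117688875 to 117710758), the main ubiquitin ligase of p53, showed a narrow range. It was at 113, 117, 116 and 126 CPM in the miR-29b input and at 118, 116, 120 and 121 CPM in the scrambled input. The scrambled pulldown had 102, 102, 104 and 97.6 CPM, below every scrambled input, and the miR-29b pulldown had 132, 101, 110 and 162 CPM. The pulldowns overlapped, and their log2 difference of 0.32 ± 0.14 (SE) did not pass (edgeR adjusted p = 0.0767). It passed without miR-29b input replicate 4 (0.35, edgeR adjusted p = 0.0479), when replicate 2 of the miR-29b pulldown was left out (edgeR adjusted p = 0.024) and with the authors' library totals (0.64, edgeR adjusted p = 0.0166). It was smaller on replicates 1 to 3 (0.16, edgeR adjusted p = 0.182), with miR-29b pulldown replicate 4 left out (0.18, edgeR adjusted p = 0.222) and with upper-quartile factors (0.03, edgeR adjusted p = 0.881). Mdm4, the relative of Mdm2 that blocks the activation domain of p53, rose in both pulldowns over their inputs, by 1.79 ± 0.30 with miR-29b (edgeR adjusted p = 1.44e-04) and by 1.45 ± 0.30 with the scrambled mimic (edgeR adjusted p = 0.0016). Its mimic-specific enrichment was 0.34 ± 0.42 (edgeR adjusted p = 0.592), or 0.89 (edgeR adjusted p = 0.0344) with miR-29b input replicate 4 left out.

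Ppm1d (chromosome 11, 85311254 to 85347071), the phosphatase Wip1 and like Mdm2 a restraint on p53, rose in the miR-29b pulldown. It was at 29.6, 38.7, 32.2 and 41.5 CPM in the miR-29b pulldown, compared with 7.77, 4.07, 5.35 and 4.18 CPM in the scrambled pulldown. The inputs had 5.09, 6.23, 5.78 and 12.0 CPM with miR-29b and 5.84, 5.25, 6.20 and 5.49 CPM with the scrambled mimic. Every miR-29b pulldown lay above all 12 other libraries. The share of all genes separated in this way was not counted, here or for the members below. Ppm1d differed between pulldowns by a log2 change of 2.76 ± 0.27 (SE; edgeR adjusted p = 8.97e-07) and had a mimic-specific enrichment of 2.41 ± 0.37 (edgeR adjusted p = 2.02e-04). With the scrambled mimic its change from input to pulldown was -0.13 ± 0.26 (edgeR adjusted p = 0.742).

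Cdkn1a (chromosome 17, 29090979 to 29100722), which encodes p21, had 243, 332, 292 and 469 CPM in the miR-29b pulldown against 31.0, 26.8, 28.7 and 30.4 CPM in the scrambled pulldown. In the inputs it had 56.5, 65.2, 60.3 and 160 CPM with miR-29b and 41.9, 44.8, 39.8 and 51.8 CPM with the scrambled mimic. The 4 groups did not overlap: the scrambled pulldown was lowest, then the scrambled input, the miR-29b input and the miR-29b pulldown. The pulldown difference was 3.52 ± 0.32 on the log2 scale (SE; edgeR adjusted p = 4.28e-07), and the mimic-specific enrichment 2.57 ± 0.42 (edgeR adjusted p = 3.35e-04). The scrambled pulldown was below its input by a log2 change of -0.61 ± 0.29, which did not pass (edgeR adjusted p = 0.119). It passed with the replicate number as a block (-0.59, edgeR adjusted p = 0.0355), on replicates 1 to 3 (-0.54 ± 0.14, edgeR adjusted p = 0.00526), without miR-29b input replicate 4 (edgeR adjusted p = 0.0122) and with those groups fitted alone (edgeR adjusted p = 0.00338).

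Eda2r (chromosome X, 97333837 to 97377234), the ectodysplasin A2 receptor, showed the largest pulldown difference of the members and ranked 13 from the top among all genes tested. Its level was 496, 809, 640 and 945 CPM in the miR-29b pulldown, compared with 12.0, 30.4, 26.4 and 22.3 CPM in the scrambled pulldown. The scrambled input had 16.3, 18.9, 18.4 and 20.8 CPM. The miR-29b input had 22.3, 22.8 and 22.3 CPM in replicates 1 to 3 and 204 CPM in replicate 4. The 4 miR-29b pulldowns were the highest libraries, and the replicate 4 input lay between them and the rest. The pulldown difference was 4.98 ± 0.70 on the log2 scale (SE; edgeR adjusted p = 3.14e-05). The mimic-specific enrichment of 3.11 ± 0.86 (edgeR adjusted p = 0.0142) depended on that input library: without it the value was 4.78 (edgeR adjusted p = 2.03e-07), and on replicates 1, 2 and 4 it was 2.94 and no longer passed (edgeR adjusted p = 0.102). On replicates 1 to 3 it was 4.49 ± 0.39 (edgeR adjusted p = 1.94e-06).

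Fas (chromosome 19, 34290647 to 34327775), the death receptor CD95, was read at low levels but varied little. The miR-29b pulldown had 12.3, 9.64, 11.0 and 12.8 CPM and the scrambled pulldown 2.59, 2.44, 2.71 and 2.51 CPM. The inputs had 3.14, 4.22, 3.54 and 3.48 CPM with miR-29b and 2.52, 2.74, 2.81 and 2.25 CPM with the scrambled mimic. Here too all miR-29b pulldowns exceeded all other libraries, and replicate 4 of the miR-29b input was not the highest of its group. The pulldown difference was 2.16 ± 0.16 on the log2 scale (SE; edgeR adjusted p = 5.72e-08), and the mimic-specific enrichment 1.68 ± 0.22 (edgeR adjusted p = 4.94e-05). The latter was 1.68 ± 0.21 on replicates 1 to 3.

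Ccng1 (chromosome 11, 40748552 to 40755309), cyclin G1, a p53 target with the paired element shown above, did not pass between the pulldowns. It had 332, 310, 321 and 467 CPM in the miR-29b pulldown, compared with 268, 426, 387 and 355 CPM in the scrambled pulldown. The inputs had 419, 478, 421 and 798 CPM with miR-29b and 345, 406, 377 and 555 CPM with the scrambled mimic. The pulldowns overlapped, and their log2 difference was -0.01 ± 0.24 (SE; edgeR adjusted p = 0.986). From input to pulldown with miR-29b the change was -0.56 ± 0.24, which did not pass (edgeR adjusted p = 0.0612). It passed with the replicate number as a block (-0.53, edgeR adjusted p = 0.0175), on replicates 1 to 3 (-0.42 ± 0.15, edgeR adjusted p = 0.0249), with miR-29b pulldown replicate 4 left out (edgeR adjusted p = 0.0247) and with upper-quartile factors (-0.81, edgeR adjusted p = 0.0112). With miR-29b input replicate 4 left out it was -0.26 (edgeR adjusted p = 0.333).

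Cdc42 (chromosome 4, 137319696 to 137357759), the small GTPase, had 491, 619, 547 and 499 CPM in the miR-29b pulldown, compared with 158, 215, 202 and 183 CPM in the scrambled pulldown. Its inputs had 225, 245, 230 and 204 CPM with miR-29b and 235, 243, 239 and 154 CPM with the scrambled mimic. All miR-29b pulldowns exceeded all other libraries. The pulldown difference was 1.51 ± 0.17 on the log2 scale (SE; edgeR adjusted p = 3.96e-06) and the mimic-specific enrichment 1.45 ± 0.24 (edgeR adjusted p = 3.68e-04). Pik3r1, the other reported link from miR-29 to p53, had 196 to 378 CPM in the miR-29b pulldown, compared with 37.9 to 98.3 CPM in the scrambled pulldown, a log2 difference of 1.89 ± 0.39 (edgeR adjusted p = 9.11e-04). It also rose from input to pulldown with the scrambled mimic (1.94 ± 0.39, edgeR adjusted p = 0.0013), and its mimic-specific enrichment of 0.94 ± 0.53 did not pass (edgeR adjusted p = 0.217). With miR-29b input replicate 4 left out, the enrichment was 1.67 (edgeR adjusted p = 0.00248).

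**Figure D2:**
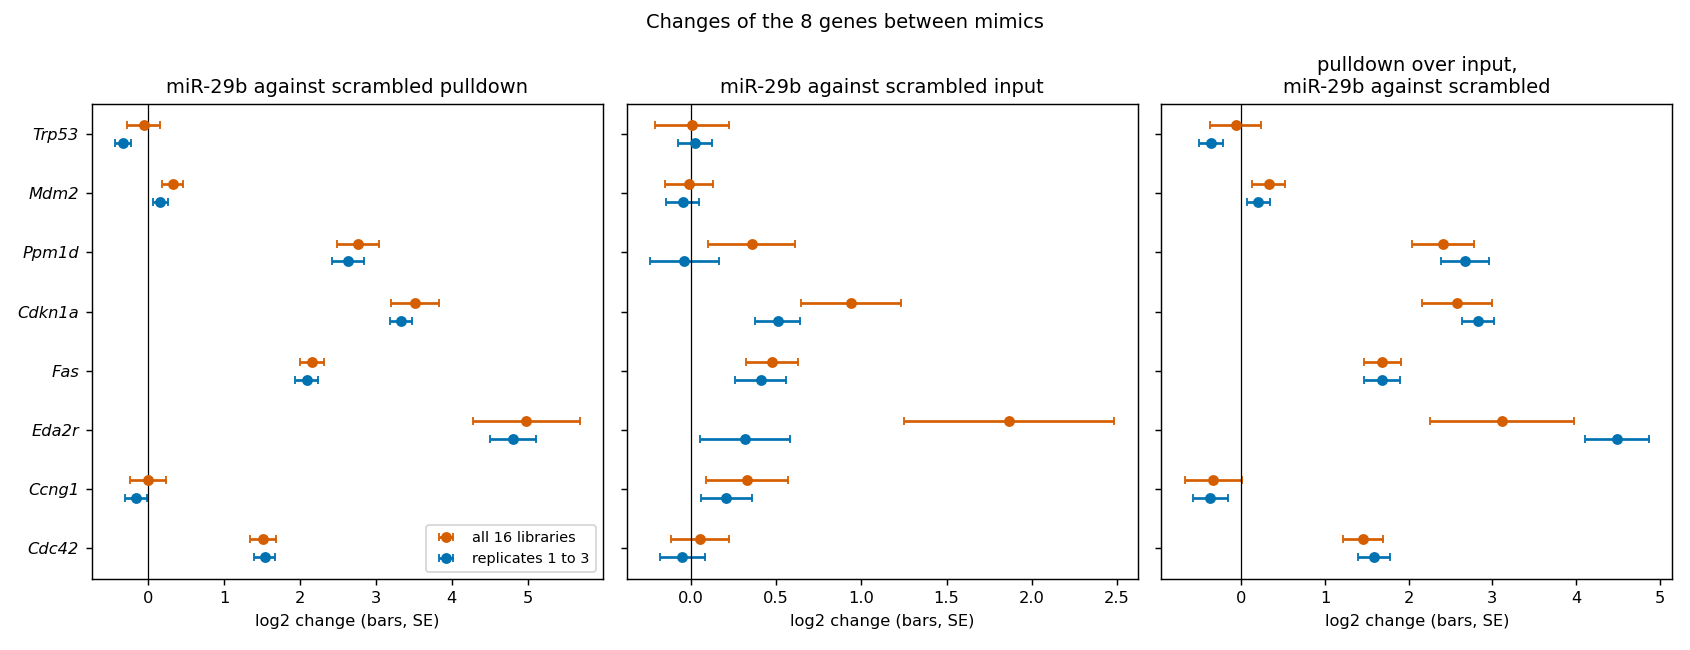
Log2 changes of the 8 members with their SE in 3 comparisons, for all 16 libraries and for replicates 1 to 3. Eda2r, Cdkn1a, Ppm1d, Fas and Cdc42 lie to the right of 0 in the pulldown and in the mimic-specific panel, and the value of Eda2r for replicates 1 to 3 is above that for all libraries in the mimic-specific panel (4.49 against 3.11).

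Seen from within each mimic, the miR-29b pulldown exceeded its own input in the same 5 members. The log2 changes were 3.41 for Eda2r, 2.28 for Ppm1d, 1.96 for Cdkn1a, 1.67 for Fas and 1.25 for Cdc42. With miR-29b input replicate 4 left out, that of Eda2r was 5.05 (edgeR adjusted p = 8.03e-09) and that of Cdkn1a 2.50. Trp53 was the single member called lower. In this comparison 28.4% of all genes were called higher and 23.2% lower. With the scrambled mimic no member was called higher from input to pulldown and Trp53 alone was called lower, against 18.5% and 17.4% of all genes; by edgeR 1 member had an unadjusted p under 0.05, and DESeq2 called no member higher either.

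Among the inputs, which reflect RNA levels in the transfected cells, no member passed. Only 7 of the 12915 genes were called higher with miR-29b (0.0542%) and 0 lower by edgeR, and DESeq2 called 32 higher and 14 lower, none of them a member. By edgeR 3 members had an unadjusted p under 0.05. These were Cdkn1a (log2 change 0.94 ± 0.29 (SE), edgeR adjusted p = 0.776), Fas (0.48 ± 0.15, edgeR adjusted p = 0.776) and Eda2r (1.87 ± 0.62, edgeR adjusted p = 0.807). In each of them every miR-29b input lay above every scrambled input. The shares of all genes tested with such an order, or with an unadjusted p under 0.05, were not counted. Within the pairs of equal number the miR-29b input was 1.35, 1.46, 1.51 and 3.09 times the scrambled input for Cdkn1a. For Fas the ratios were 1.24, 1.54, 1.26 and 1.55, for Eda2r 1.37, 1.21, 1.21 and 9.79, and for Ccng1 1.21, 1.18, 1.12 and 1.44. On replicates 1 to 3 the change was 0.51 ± 0.13 for Cdkn1a (edgeR adjusted p = 0.0869), 0.41 ± 0.15 for Fas (edgeR adjusted p = 0.213) and 0.32 ± 0.26 for Eda2r (edgeR adjusted p = 0.663). Trp53, Mdm2 and Cdc42 differed by 0.01, -0.01 and 0.05, and Ppm1d by 0.36 ± 0.26, or by -0.04 on replicates 1 to 3. In bulk RNA, a change in every cell and a larger change in some cells cannot be told apart.

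Other genes of the pathway were read from a list of regulators of p53 and a list of its targets. Both lists were likewise chosen with earlier results of these data known. Of the 44 tested targets, 14 were higher and 7 lower in the mimic-specific enrichment, where 17.0% of all genes were higher and 9.21% lower. Their median log2 change was 0.02 against -0.10 over all genes. Without replicate 1 or replicate 3 of the scrambled input 4 targets were lower, against 6.21% or 5.99% of all genes. Among the highest called were Bbc3, Plk3, Trp53inp1 and Btg2. Bbc3, the pro-apoptotic BH3-only protein Puma, had 32.7 to 83.2 CPM in the miR-29b pulldown against 2.73 to 5.22 CPM in the scrambled one, and an enrichment of 2.88 ± 0.66 (SE; edgeR adjusted p = 0.00451) that was 3.94 when replicate 4 of the miR-29b input was left out and did not pass on replicates 1, 2 and 4 (2.65, edgeR adjusted p = 0.0762). Plk3, a polo-like kinase, had 44.5 to 46.6 CPM against 9.60 to 11.8 CPM, and an enrichment of 2.12 ± 0.17 (edgeR adjusted p = 1.75e-06). Trp53inp1, a p53-induced stress protein, had an enrichment of 1.95 ± 0.38, and Btg2, an antiproliferative factor, of 1.62 ± 0.27 (edgeR adjusted p = 0.00126 and 3.96e-04).

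Further targets went both ways. Bax, the pore-forming member of the Bcl2 family, rose by 1.58 ± 0.29 in the mimic-specific enrichment (edgeR adjusted p = 7.95e-04). Zmat3, a zinc finger protein that binds RNA, rose by 1.28 ± 0.38 (edgeR adjusted p = 0.0218), a call lost without replicate 1, 2 or 3 of the miR-29b-treated input (edgeR adjusted p = 0.0508 to 0.0531), with upper-quartile factors (1.01, edgeR adjusted p = 0.0593) and on replicates 1, 2 and 4 (1.38, edgeR adjusted p = 0.112). Plk2, another polo-like kinase, and Rrm2b, a subunit of ribonucleotide reductase, rose by 1.27 ± 0.20 and 1.19 ± 0.24 (edgeR adjusted p = 2.4e-04 and 0.00153). Sesn1, a sestrin, and Gadd45a, a growth arrest and DNA damage gene, did not pass, with -0.28 ± 0.24 and -0.49 ± 0.43 (edgeR adjusted p = 0.443 and 0.44). The lowest called genes of both lists were Cpt1c, Kat5, Aen, Tsc2 and Atm. Cpt1c, a relative of carnitine palmitoyltransferase, had 1.92 to 2.67 CPM in the miR-29b pulldown, compared with 4.91 to 13.3 CPM in the scrambled pulldown, and a change of -2.91 ± 0.36 (edgeR adjusted p = 3.38e-05). Tsc2, a repressor of mTOR signalling, fell by 1.18 on the log2 scale (SE 0.20, edgeR adjusted p = 3.98e-04). Aen, an exonuclease induced by p53, fell by 1.19 (SE 0.37, edgeR adjusted p = 0.0265), a call lost on leaving out any of 8 single libraries (edgeR adjusted p = 0.0507 to 0.0618) and on replicates 1, 2 and 4 (edgeR adjusted p = 0.141).

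Of the 21 tested regulators, 1 was higher and 4 were lower in the mimic-specific enrichment, against 17.0% and 9.21% of all genes. Their median was -0.13. With miR-29b input replicate 4 left out 5 were higher, against 21% of all genes. The higher gene was Sirt1, a deacetylase of p53 (1.03 ± 0.25 (SE), edgeR adjusted p = 0.00692). The lower genes were Atm, the kinase that signals DNA breaks (-1.04 ± 0.27, edgeR adjusted p = 0.00938), Kat5, the acetyltransferase Tip60 (-1.26 ± 0.28, edgeR adjusted p = 0.00328), Trim24 and Trp53bp1 (both -0.92, edgeR adjusted p = 0.0135 and 0.00568). Sirt1, Trim24 and Trp53bp1 are named because the counts are small and were picked after their values were seen. Atm was higher in both pulldowns than in their inputs, with 8.51 to 14.9 CPM in the miR-29b and 30.4 to 34.0 CPM in the scrambled pulldown against 3.74 to 6.38 CPM in all inputs. With the authors' library totals in place of TMM, 0 regulators were called lower, against 2.21% of all genes, and Atm, Kat5 and Aen did not pass. On replicates 1, 2 and 4 no regulator was called in either direction, against 7.78% of all genes higher and 1.81% lower. On replicates 1 to 3, by contrast, 17 targets were higher and 11 lower, and 4 regulators were higher and 5 lower, where 24.4% of all genes were called higher and 19.1% lower. Between the pulldowns themselves 18 targets were higher and 8 lower, and 3 regulators were higher and 7 lower. There 24.5% of all genes were called higher and 20.9% lower. Without miR-29b pulldown replicate 1, 5 regulators were higher, against 23.7% of all genes.

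In the inputs no gene of either list passed (by edgeR 6 targets and 2 regulators had an unadjusted p under 0.05; DESeq2 called 0). How many of all genes tested had such a p was not counted. Of the 44 targets 36 had a log2 change above 0 with miR-29b, with a median log2 change of 0.15 against 0.02 over all genes. Of the 21 regulators 7 did, with a median of -0.10. On replicates 1 to 3 the change was above 0 for 31 targets, with a median of 0.08 against -0.02 over all genes. By edgeR 1 target was called there, lower, where 0.74% of all genes were called lower. It was Dram1, a lysosomal protein that modulates autophagy, named after its value was seen.

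**Figure D3:**
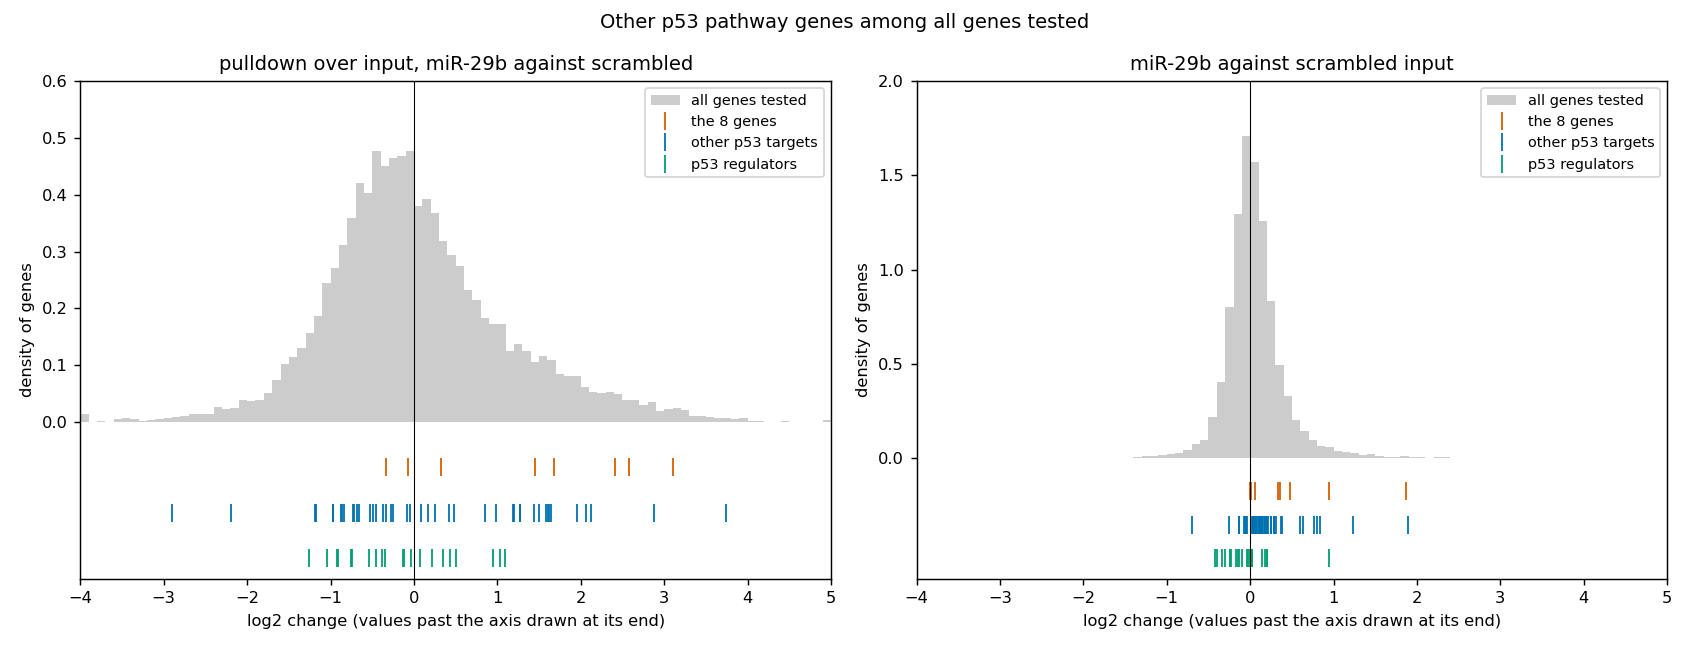
Histogram of the log2 changes of all 12915 genes tested (grey), with ticks for the 8 members, the other p53 targets and the p53 regulators; the left panel is the mimic-specific enrichment and the right panel the difference between inputs. On the left the members spread from -0.34 to 3.11 and the targets lie on both sides of 0, while on the right most target ticks lie just right of 0.

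The genes whose level ran most like that of Ppm1d and of Cdkn1a were taken as the 3 highest Pearson correlations of log2 CPM over the 16 libraries among 9147 genes. For Ppm1d they were Atp5c1, Agpat5 and Usp42 (r = 0.988, 0.987 and 0.986), and for Cdkn1a they were Mblac2, Pigc and Tmem183a (r = 0.991, 0.991 and 0.990). These points share 4 groups, so the values mostly describe the step between the miR-29b pulldown and the rest. Usp42, a deubiquitinase, averaged 197 CPM in the miR-29b pulldown, compared with 12.0 CPM in the scrambled pulldown. Among the members themselves, Ppm1d and Cdkn1a had r = 0.953, Fas and Ppm1d 0.950, and Trp53 and Eda2r -0.56.

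In the nuclear and cytoplasmic fractions there was 1 library per group, so no test was possible and the intervals cover counting error only. In the cytoplasm 3 of the 8 members were at least 2-fold higher in the miR-29b than in the scrambled pulldown, namely Eda2r, Fas and Cdc42, against 20.3% of all genes. Eda2r had 171 against 21.9 CPM, a log2 ratio of 2.94 (95% interval 2.62 to 3.25). Fas had 20.2 against 3.09 CPM, from 169 and 12 counts, a log2 ratio of 2.55 (1.70 to 3.39). Cdc42 had 653 against 219 CPM, a log2 ratio of 1.57 (1.47 to 1.68). No member was 2-fold lower, against 16.9% of genes. Cdkn1a had 73.0 against 39.5 CPM and a log2 ratio of 0.88 (0.63 to 1.14), and Ppm1d had 15.3 against 12.9 CPM and 0.24 (-0.23 to 0.71). Trp53 was lower, with 30.0 against 39.5 CPM.

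In the nucleus no member was 2-fold higher between the pulldowns, as few genes were (1.26% of all genes were higher and 1.96% lower). The highest were Ppm1d, with 23.3 against 13.5 CPM and a log2 ratio of 0.77 (0.42 to 1.12), Eda2r with 0.76 (0.47 to 1.04) and Cdkn1a with 0.62 (0.25 to 0.99). Fas had 8.42 against 9.53 CPM, and Mdm2 279 against 278 CPM. For Ppm1d the nuclear ratio was thus the larger and for Fas, Eda2r and Cdc42 the cytoplasmic one; whether these differ beyond replicate spread was not tested.

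The members also differed in where their RNA lay. In the scrambled input Mdm2 had 399 CPM in the nucleus and 185 CPM in the cytoplasm, a log2 ratio of nucleus over cytoplasm of 1.10 (1.04 to 1.16), the highest of the members. Ccng1 was the most cytoplasmic, with 124 against 585 CPM and a ratio of -2.23 (-2.30 to -2.16). Cdc42 and Cdkn1a followed with -1.63 and -1.17, then Eda2r with -0.46, Trp53 with -0.29, Fas with 0.19 and Ppm1d with 0.63. In the miR-29b input the ratios ran from -2.47 for Ccng1 to 1.22 for Mdm2. At 2-fold, 1 member was nuclear and 3 were cytoplasmic in either input, against 23.8% and 24.0% of all genes in the scrambled input and 25.1% and 25.9% in the miR-29b input. These ratios rest on the scaling between fractions: without TMM factors 2 members were nuclear in the scrambled input, and 3 nuclear and 1 cytoplasmic in the miR-29b input. Between the cytoplasmic inputs, Ccng1 was higher with miR-29b (847 against 585 CPM, log2 ratio 0.53, interval 0.50 to 0.57), as were Eda2r (0.33) and Cdkn1a (0.27). Mdm2 was lower (-0.16, interval -0.24 to -0.09), and Fas had -0.38 (-0.78 to 0.01), opposite in sign to its difference between the whole-cell inputs.

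**Figure D4:**
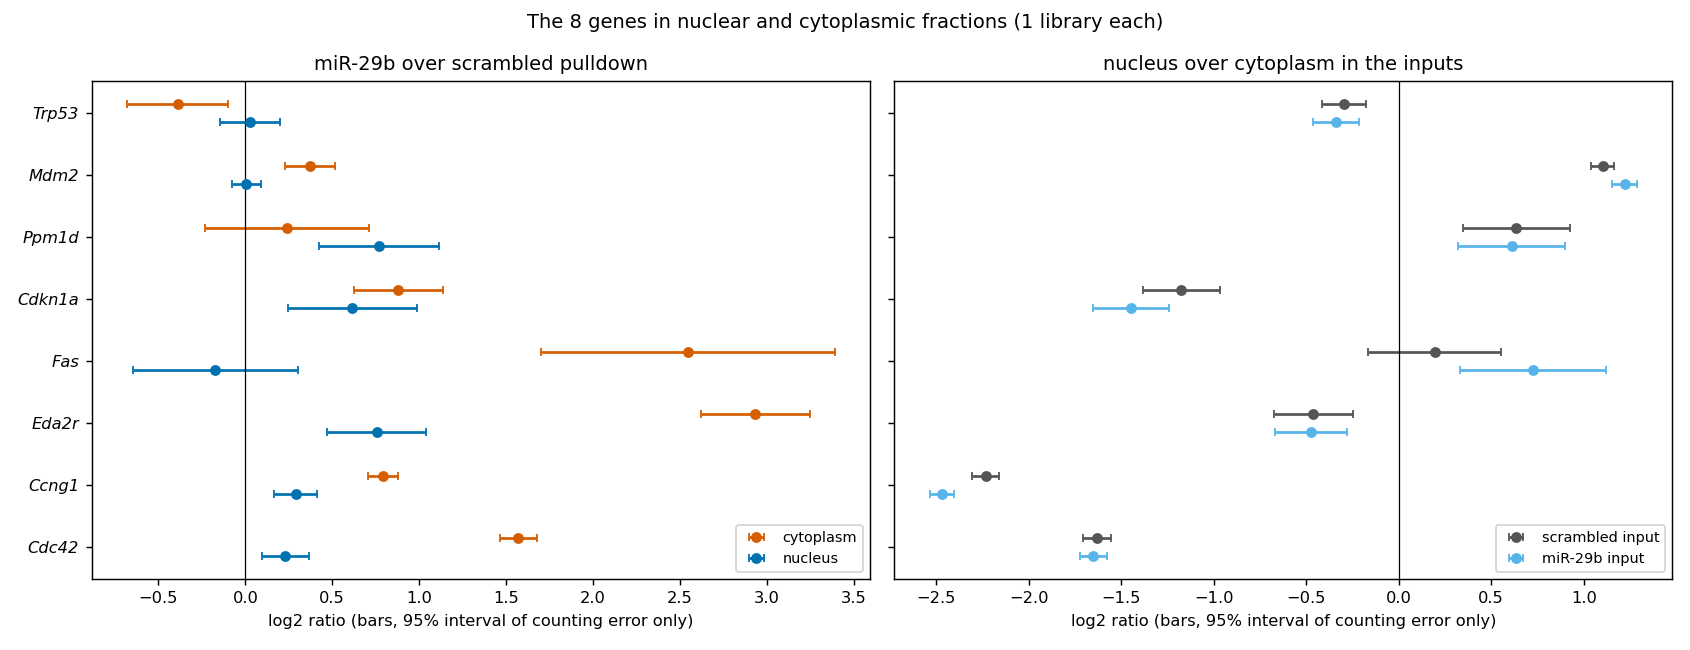
Log2 ratios of the 8 members in fractionated cells, with bars for the 95% interval of counting error from 1 library per group; left, miR-29b over scrambled pulldown in cytoplasm and nucleus; right, nucleus over cytoplasm in the inputs. Eda2r, Fas and Cdc42 lie past 1 in the cytoplasm and below 1 in the nucleus, and Mdm2 is the most nuclear and Ccng1 the most cytoplasmic in both inputs.

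The authors' deposited table gives a score called PE per gene and replicate, whose formula is not given in the sources used here. In the authors' deposited table the score of Eda2r in replicates 1 to 4 is 65.7, 30.1, 26.5 and 46.6, that of Cdkn1a 10.6, 12.5, 9.78 and 15.6, and that of Ppm1d 5.18, 9.63, 5.70 and 10.1. In the same authors' deposited table Fas has 5.91, 3.23, 3.41 and 5.15, and Cdc42 2.90, 2.31, 1.95 and 2.45. The averages over replicates 1 to 3 in the authors' deposited table are 0.205 for Mdm2, -0.104 for Ccng1 and -1.16 for Trp53. For replicate 4 the authors' deposited table has 0.931 for Mdm2, -0.0266 for Ccng1 and 0.650 for Trp53. Its mark for a positive hit is set for 3 of the 8 members, Eda2r, Cdkn1a and Ppm1d, and for 4.19% of the genes in the authors' deposited table. The mark for a predicted TargetScan site, read from its column name, is set in the authors' deposited table for 0 of the 8 members and for 3.76% of all genes.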

How the data were processed

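Each library took 5 ng of RNA (6 ng in miR-29b input replicate 4), per the labels. Per the submitters' processing notes reads were handled with STAR 2.3.0 and mm10; which counter, annotation and strand setting made the counts is not given in the sources used here. Whole-number counts per gene are deposited, and beside them CPM values, made by the authors from the count plus 1 and a library total larger than the listed counts; these CPM served only to recover that total. The authors' deposited PE score was only copied. The table had 14052 lines for 13534 genes; 518 repeat lines with equal counts were dropped, and the remaining 619 genes not tested fell under the filter. The listed counts were 48.9% to 87.3% of the authors' library totals. The fraction tables deposited for nucleus and cytoplasm were identical (0 bytes differed).

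The test of the counts was that of edgeR 4.0.16 (R 4.3.3): filterByExpr, TMM, 1 quasi-likelihood model of 4 group means over 16 libraries, two-sided, Benjamini-Hochberg over 12915 genes, threshold 0.05. The common dispersion was 0.106. Fraction ratios used TMM and a prior count of 5. The 8 members, the lists of 24 regulators and 50 targets and the rules were chosen with earlier results of these data known. Named besides the members were 10 genes of interest, the 5 highest and 5 lowest called genes of the lists in the mimic-specific enrichment, and the 3 genes most like Ppm1d and Cdkn1a; 1 gene that this rule names is not reported here. In simulated counts over 12824 genes, 71% of 4-fold and 1% of 2-fold changes were recovered in the mimic-specific enrichment, and 98% and 27% in the pulldown difference. The simulation gave every gene the same dispersion and changed 100 genes at each fold, far fewer than were called in the data. Its shares are therefore not the power of the tests on the data. Deviations from the group mean correlated in same-numbered libraries between the inputs (r = 0.506 to 0.717) and between the miR-29b input and pulldown (0.379 to 0.70). Replicate 2 of the miR-29b input was closest to replicate 3 of its pulldown. Each group mean includes replicate 4, so these r values cannot tell pairing by number from the distance of replicate 4. In each pairing with the scrambled pulldown number 3 had r below 0 (-0.096 to -0.054) and the other numbers 0.017 to 0.365, so the rule (every r over 0.1) was not met and the number was a block only as an alternative. Other alternatives were RLE and upper-quartile factors, the authors' totals, DESeq2 1.42.0, other filters, subsets of replicates, only the groups compared, and leaving out each library. Replicates 1 to 3 with a block was added after the data were seen.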

Additional observations from a re-analysis of the deposited data

Results flagged for a closer look

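In 6 of the 32 member-by-group sets of 4 libraries, replicate 4 lay far from the other replicates (Dixon's criterion, which chance meets in about 1 of 20 sets). In the miR-29b input these were Eda2r at 204 CPM, Cdkn1a at 160 CPM, Ppm1d at 12.0 CPM and Ccng1 at 798 CPM. Ccng1 in the miR-29b pulldown was at 467 CPM and Cdc42 in the scrambled input at 154 CPM. In the scrambled input of the same number Eda2r was at 20.8 CPM, Cdkn1a at 51.8 CPM and Ppm1d at 5.49 CPM. Replicate 4 may come from another procedure than replicates 1 to 3, going by the headers of the authors' table. The part of this in the values was not tested.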

How the results depend on the processing

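Of 40 member changes 17 were called. Over 454 alternatives of these, 451 kept the direction and the call, 3 lost the call and 0 changed direction. The 3 were Eda2r in the mimic-specific enrichment on replicates 1, 2 and 4 (2.94), Trp53 with miR-29b, pulldown over input, with the authors' totals (-0.64), and Trp53 with the scrambled mimic on replicates 1, 2 and 4 (-0.81). Over 618 alternatives of the 23 uncalled changes, 16 passed and 54 changed sign without a call. The median of all genes in the mimic-specific enrichment was -0.10 with TMM, -0.39 with upper-quartile factors and 0.21 with the authors' totals, and 64.8%, 40.9% and 89.6% of its calls were higher; the 5 members called higher were so under each. The cause of the changes below was not tested.

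With upper-quartile factors, 16 targets were lower and 1 regulator higher between pulldowns, against 33.6% and 19.1% of all genes. From input to pulldown with miR-29b, 2 members were lower, against 32.6% of all genes. With the authors' totals, 2 targets and 0 regulators were lower in the mimic-specific enrichment, against 2.21% of all genes. Between pulldowns 3 targets and 3 regulators were then lower and 5 regulators higher, against 8.47% and 29.4% of all genes. From input to pulldown with miR-29b, 0 members were lower with these totals, against 12.1% of all genes. The replicate block gave 14 targets lower and 5 regulators higher between pulldowns, against 28.3% and 26.4% of all genes. It gave 2 members lower in either pulldown over its input, against 28.3% (miR-29b) and 21% (scrambled) of all genes. No other member call changed with the block. On replicates 1 to 3, 11 targets were lower and 4 regulators higher in the mimic-specific enrichment, against 19.1% and 24.4% of all genes. Between pulldowns 1 member and 13 targets were lower there, against 29.5% of all genes. Between inputs 1 target was lower, against 0.74% of all genes. In either pulldown over its input 2 members were lower, against 31% (miR-29b) and 26.4% (scrambled) of all genes. Adding the block to replicates 1 to 3 gave 13 targets lower and 4 regulators higher in the mimic-specific enrichment, against 22.2% and 26.2%. It gave 1 member lower between pulldowns, against 31.9% of all genes. Between inputs it gave 1 target higher, 1 target lower and 1 regulator lower, against 1.01% higher and 1.62% lower. From input to pulldown it gave 2 (miR-29b) and 3 (scrambled) members lower, against 33% and 28.7% of all genes. In the mimic-specific enrichment on replicates 1, 2 and 4, 7 targets were higher, 3 lower and 0 regulators called. Of all genes 7.78% were higher and 1.81% lower there. Between pulldowns on these replicates 5 targets were lower, 1 regulator higher and 4 lower, against 19% of all genes higher and 11.3% lower. With the scrambled mimic 0 members were lower from input to pulldown, against 7.7% of all genes. Fitting the scrambled pulldown and its input alone on all replicates gave 2 members lower, against 21.5% of all genes. Without TMM, 2 members were 2-fold nuclear in the scrambled input, and 3 nuclear and 1 cytoplasmic in the miR-29b input.

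Leaving out each library gave, in the mimic-specific enrichment, 5 to 5 members higher and 0 to 0 lower. It gave 11 to 16 targets higher and 4 to 10 lower, and 1 to 5 regulators higher and 4 to 5 lower. Of all genes 1925 to 2740 were higher and 783 to 1449 lower. Between pulldowns 5 to 6 members were higher, 16 to 19 targets higher and 6 to 10 lower, and 2 to 5 regulators higher and 6 to 8 lower. There 2857 to 3435 of all genes were higher and 2271 to 2914 lower. From input to pulldown, 1 to 2 members were lower with either mimic, beside 2516 to 3272 (miR-29b) and 1764 to 2760 (scrambled) of all genes. Counts moved by over 1.5 times without replicate 4 of the miR-29b input (5 regulators higher in the mimic-specific enrichment, 2 members lower with the scrambled mimic), replicate 1 or 3 of the scrambled input (4 targets lower), and replicate 1 (5 regulators higher between pulldowns) or 4 (2 members lower) of the miR-29b pulldown. In that order the shares of all genes were 21% higher, 21.1% lower, 6.21% or 5.99% lower, 23.7% higher and 23.2% lower.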
